A study of Mus musculus with 4 samples.

Results

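DNA damage signalling and repair genes were followed in mouse E14 embryonic stem cells, a pluripotent line of 129 strain origin, after knockdown of the repeat-derived RNA Lx8-SINE B2. The members were 44 named checkpoint, homologous recombination, Fanconi, mismatch, excision and end-joining genes, and 43 of the 44 were found by symbol among the 35976 gene rows of the deposited count table. All 43 passed the filter on low counts. Claspn was the member without a row. Its protein, claspin, is listed in the table as Clspn, which is given below as a gene outside the rule. The 2 groups held 2 libraries each: wild type E14 cells carrying short hairpin RNA against Lx8-SINE B2 from a pSuper puro vector (knockdown), and wild type E14 cells labelled as control. All cells grew on gelatin in serum with LIF, and a single protocol of transfection with the vector followed after 24 h by 3 days of puromycin at 1 ug/ml is attached to every sample. The vector or hairpin in the controls is not stated.

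Cells read damage through kinases that sit at the top of a relay. ATM is recruited to broken ends by the MRE11, RAD50 and NBN complex, whereas ATR, with ATRIP and TOPBP1, answers single-stranded DNA at stalled forks, and these kinases activate CHEK2 and CHEK1. Breaks are then rejoined directly by Ku and the DNA-dependent kinase, or copied from the sister chromatid with the help of BRCA1, BRCA2 and PALB2, while damaged bases, bulky adducts, mispairs and crosslinks have excision and Fanconi pathways of their own. Mouse embryonic stem cells divide fast, spend most of the cycle in S phase and rely strongly on homologous recombination, which is active then.

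The knockdown libraries held 18592224 and 16383323 counts and the control libraries 19867689 and 19044832, so that counting error was small for all members except the weakest. The members together took 0.481% and 0.446% of the counts in the knockdown libraries and 0.523% and 0.552% in the controls. The titles name a batch for the knockdown libraries only, so an effect of that batch cannot be told apart from the knockdown. The labels do not state that replicate libraries are separate cultures, and p-values therefore measure the spread between libraries that may be technical repeats. The embryonic stem cell markers Pou5f1, Sox2, Nanog, Zfp42 and Esrrb summed to 3726 and 3985 CPM (counts scaled to library size) in the knockdown libraries, against 4433 and 3919 CPM in the controls. Of 7 fibroblast markers, Postn and Lum were at 0 in every library, and the 7 summed to 6.26 to 8.16 CPM in the knockdown libraries, against 11.7 to 20.2 CPM in the controls. Pdgfrb alone had 5.29 and 3.65 CPM in the knockdown libraries, against 9.51 and 16.5 CPM in the controls. The groups of Col1a1 and Col1a2 overlapped, and of the 3 fibroblast markers tested 0 were called by edgeR. The 5 primitive endoderm markers Gata4, Gata6, Sox17, Sox7 and Foxa2 summed to 18.7 to 27.5 CPM in the knockdown libraries and to 8.72 to 9.29 CPM in the controls, and their part in the results was not tested. Foxa2 did not pass the filter on low counts, and of the other 4 markers 0 were called by edgeR. In these 4 both knockdown libraries lay above both controls, where 27.3% of all tested genes did so. At low levels they were higher in the knockdown cells by 2.25-fold for Gata4, 2.95-fold for Gata6, 2.80-fold for Sox17 and 2.22-fold for Sox7. Gata4 had 15.4 and 6.51 CPM in the knockdown libraries, against 5.02 and 4.72 CPM in the controls. In bulk RNA, fewer cells of a type and less RNA per cell cannot be told apart.

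The comparison asked which members differed between knockdown and control cells. Ercc4, which encodes the catalytic subunit of a structure-specific nuclease, rose 2.31-fold in the knockdown cells and was the single member to pass. Most of the other members were lower in the knockdown cells, and their differences did not pass. The largest of these differences were in Xrcc6 and Xrcc5, the subunits of the end-binding Ku heterodimer, in the checkpoint kinase gene Chek2 and in the recombination gene Rad54l. A member was called at a Benjamini-Hochberg adjusted p below 0.05 in edgeR's quasi-likelihood test, adjusted over 16209 genes. By this rule 1 member was called higher, where 0.876% of all tested genes were, and 0 were called lower, where 0.555% of all tested genes were. At an unadjusted p below 0.05, 2 members were higher (background 11.0%) and 13 were lower (background 8.58%). By other tools, limma-voom called 1 member higher (background 0.925%) and 0 lower (background 0.561%), and DESeq2 called 1 higher (background 3.67%) and 4 lower (background 2.88%).

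The direction was uneven. Log2 fold changes, given throughout as knockdown over control, were below 0 in 34 of the 43 members (79.1%), against 49.5% of all tested genes, and in 30 to 34 members over 12 alternatives. The member median was -0.24 and that of all tested genes 0.01. In 24 members (55.8%) both knockdown libraries lay below both controls, where 24.6% of all tested genes did so. In 7 members (16.3%) both lay above, where 27.3% of all tested genes did so, and in 12 the groups overlapped. Seen by library, the median member was at -0.18 and -0.32 in the knockdown libraries and at -0.10 and 0.10 in the controls, each as log2 CPM relative to the control mean. The members were chosen with earlier results of these data known, and these counts describe them without a test.

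**Figure D1:**
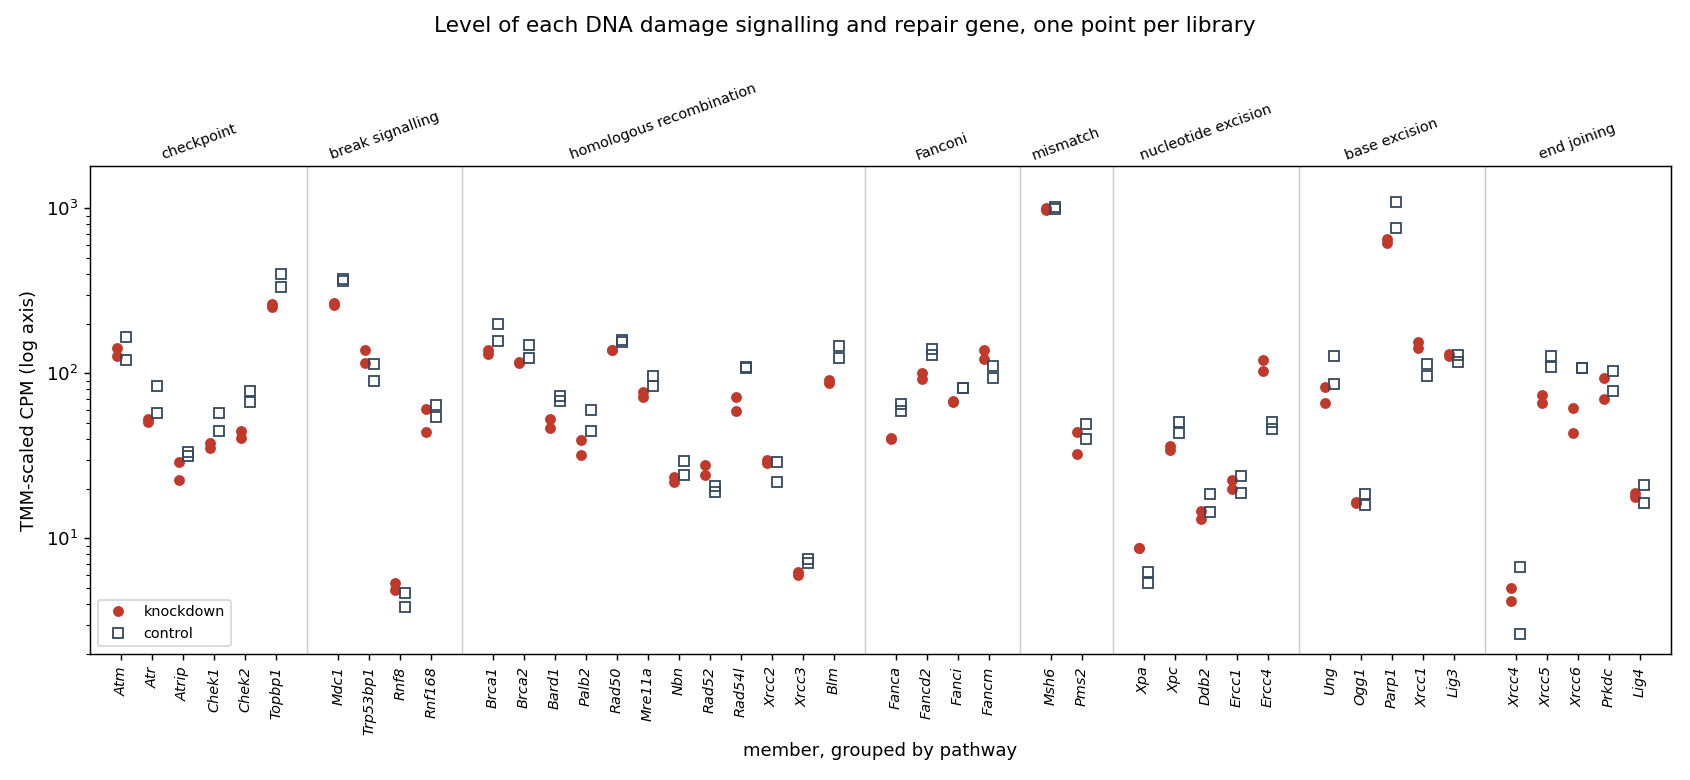
Scaled CPM on a log axis for each of the 43 members in each library, with knockdown libraries as filled circles left of the controls as open squares, grouped by pathway. Both knockdown points lie below both control points in 24 members (55.8%, against 24.6% of all tested genes). They lie above them in 7 (16.3%, against 27.3%). Ercc4 is at 103 and 120 CPM in the knockdown libraries, against 46.1 and 50.6 CPM in the controls.

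Checkpoint members lay on the low side. The 6 measured members had a median log2 fold change of -0.47. All 6 were below 0, where 49.5% of all tested genes were. In 5 both knockdown libraries lay below both controls, where 24.6% of all tested genes did so. The 9 checkpoint genes of the further list described below had a smaller median, -0.11, and all 9 were below 0. In 3 of those 9 (33.3%) both knockdown libraries lay below both controls, and in 6 the groups overlapped. Chek2, the kinase that ATM activates at broken ends, was at 40.5 and 44.8 CPM in the knockdown libraries, against 66.7 and 78.4 CPM in the controls. Both knockdown libraries were well below both controls, and the difference of -0.77 ± 0.19 (SE) did not pass (edgeR adjusted p = 0.0892). Chek2 was called lower with DESeq2 and without the filter on low counts, and its adjusted p ranged from 0.0182 to 0.365 over 12 alternatives. The gene spans 110839800 to 110874140 on chromosome 5 (mm10). Its promoter as RefSeq lists it (GRCm38.p6, chr5:110839733-110840032, plus strand, 250 bases before to 50 after the start) is shown because it carries the E2F motif that recurs below, with matches to TTTCCCGC and CCAAT on either strand in capitals.
Chek2: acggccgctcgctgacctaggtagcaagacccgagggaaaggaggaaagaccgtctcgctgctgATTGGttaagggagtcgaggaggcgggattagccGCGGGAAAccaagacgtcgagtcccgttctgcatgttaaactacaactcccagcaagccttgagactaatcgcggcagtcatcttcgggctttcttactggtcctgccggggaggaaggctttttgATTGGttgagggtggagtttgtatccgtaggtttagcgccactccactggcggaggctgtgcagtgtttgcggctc

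Topbp1, the activator of ATR, had 264 and 253 CPM in the knockdown libraries and 333 and 399 CPM in the controls. Its log2 fold change was -0.50 ± 0.18 (SE, edgeR adjusted p = 0.177), and the groups were apart. Chek1, the kinase downstream of ATR that restrains entry into mitosis, had 35.4 and 37.8 CPM in the knockdown libraries and 45.0 and 57.7 CPM in the controls. It was at -0.49 ± 0.21 (SE, edgeR adjusted p = 0.248), again with no overlap, although the controls differed from each other more than the knockdown libraries did. Atr itself had 52.6 and 51.0 CPM in the knockdown libraries, against 57.4 and 84.4 CPM in the controls, a log2 fold change of -0.45 that was -0.70 without control replicate 1 and -0.20 without control replicate 2. Its partner Atrip had 28.9 and 22.4 CPM in the knockdown libraries, against 33.4 and 31.5 CPM in the controls, or -0.34, and shares exon sequence on the same strand with Trex1, so reads of these genes may be mixed. Atm, the kinase for broken ends, was the member of this pathway whose groups overlapped, at 143 and 127 CPM in the knockdown libraries and 120 and 166 CPM in the controls. Its log2 fold change of -0.09 became 0.11 without control replicate 2. Clspn, the claspin gene that carries the signal of ATR to CHEK1, lies outside the rule as spelled and had 92.3 and 92.0 CPM in the knockdown libraries, against 99.4 and 104 CPM in the controls, a log2 fold change of -0.14.

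Of the 4 members that mark breaks on chromatin 0 were called by edgeR, where 0.876% of all tested genes were called higher and 0.555% lower. At an unadjusted p below 0.05, 1 of the 4 was lower, where 8.58% of all tested genes were. Mdc1, the adaptor that reads phosphorylated histone H2AX, had 265 and 259 CPM in the knockdown libraries and 373 and 361 CPM in the controls. Replicates were close and the groups clearly apart, with a log2 fold change of -0.49 and a standard error of 0.17 (edgeR adjusted p = 0.162). Trp53bp1, whose protein shields ends from resection, had 139 and 115 CPM in the knockdown libraries, against 114 and 89.5 CPM in the controls, a log2 fold change of 0.32 with little distance between the nearest libraries of the groups. That value was 0.17 without knockdown replicate 1, 0.11 without control replicate 2 and 0.50 without control replicate 1. Its exons overlap those of Tubgcp4 on the opposite strand. The ubiquitin ligase genes that act between them were at 5.34 and 4.86 CPM in the knockdown libraries, against 4.65 and 3.84 CPM in the controls, for Rnf8. Rnf168 had 61.0 and 43.96 CPM in the knockdown libraries and 54.1 and 64.0 CPM in the controls, and its groups overlapped. The median of these 4 members was 0.05, and it was -0.13 without knockdown replicate 1 and 0.19 without knockdown replicate 2.

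Homologous recombination held the most members, 12, of which 10 had both knockdown libraries below both controls, 1 had both above and 1 overlapped. Of all tested genes, 24.6% had both below and 27.3% had both above. The median log2 fold change of the 12 members was -0.27. Rad54l, the motor protein that drives strand exchange, stood lowest, at 72.2 and 59.4 CPM in the knockdown libraries and 109 and 108 CPM in the controls. The controls were nearly equal, and the log2 fold change was -0.72 ± 0.18 (SE, edgeR adjusted p = 0.0892). Rad54l was called lower with DESeq2 and without the filter on low counts, and its adjusted p ranged from 0.0206 to 0.559 over 12 alternatives. Its exons overlap those of Lrrc41 on the opposite strand over 15.4% of their length. Blm, the helicase that dissolves crossed recombination intermediates, had 87.5 and 91.0 CPM in the knockdown libraries, against 124 and 147 CPM in the controls, a log2 fold change of -0.60 ± 0.18 (SE, edgeR adjusted p = 0.12). The groups of Blm were apart.

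The members around BRCA1 lay below the controls. Brca1, the scaffold that promotes recombination, had 139 and 131 CPM in the knockdown libraries and 157 and 200 CPM in the controls, or -0.40 ± 0.19 (SE, edgeR adjusted p = 0.281). Bard1, its obligate ubiquitin ligase partner, had 52.6 and 46.8 CPM in the knockdown libraries and 68.0 and 73.0 CPM in the controls, or -0.50 ± 0.18 (SE, edgeR adjusted p = 0.188). Palb2, which links BRCA1 to BRCA2, had 39.3 and 32.2 CPM in the knockdown libraries and 44.6 and 59.9 CPM in the controls, or -0.55 ± 0.23 (SE, edgeR adjusted p = 0.236). In these 3 genes both knockdown libraries lay below both controls, where 24.6% of all tested genes did so. The controls of Brca1 and Palb2 were far apart. Brca2, the loader of the strand-exchange recombinase, was at -0.23, with 117 and 116 CPM in the knockdown libraries against 124 and 149 CPM in the controls.

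The end-sensing complex had smaller log2 fold changes. Mre11a, its nuclease, had 72.1 and 76.8 CPM in the knockdown libraries and 83.6 and 96.8 CPM in the controls, a log2 fold change of -0.28. Rad50, its long ATPase, had 138 and 139 CPM in the knockdown libraries and 155 and 159 CPM in the controls, or -0.18. Nbn, the subunit that recruits ATM, had 23.7 and 22.0 CPM in the knockdown libraries and 24.3 and 29.3 CPM in the controls, or -0.23. In all 3 both knockdown libraries lay below both controls, where 24.6% of all tested genes did so. The log2 fold changes were not far above their standard errors of 0.16 to 0.23. Xrcc3, a recombinase paralog, was at -0.26, with 5.96 to 6.23 CPM in the knockdown libraries and 7.11 to 7.45 CPM in the controls. Rad52, which anneals complementary strands, was the exception with both knockdown libraries higher, at 27.7 and 24.3 CPM against 19.2 and 20.7 CPM in the controls, or 0.39 ± 0.23 (SE). The other recombinase paralog, Xrcc2, overlapped, at 29.7 and 28.5 CPM in the knockdown libraries and 22.1 and 29.1 CPM in the controls.

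**Figure D2:**
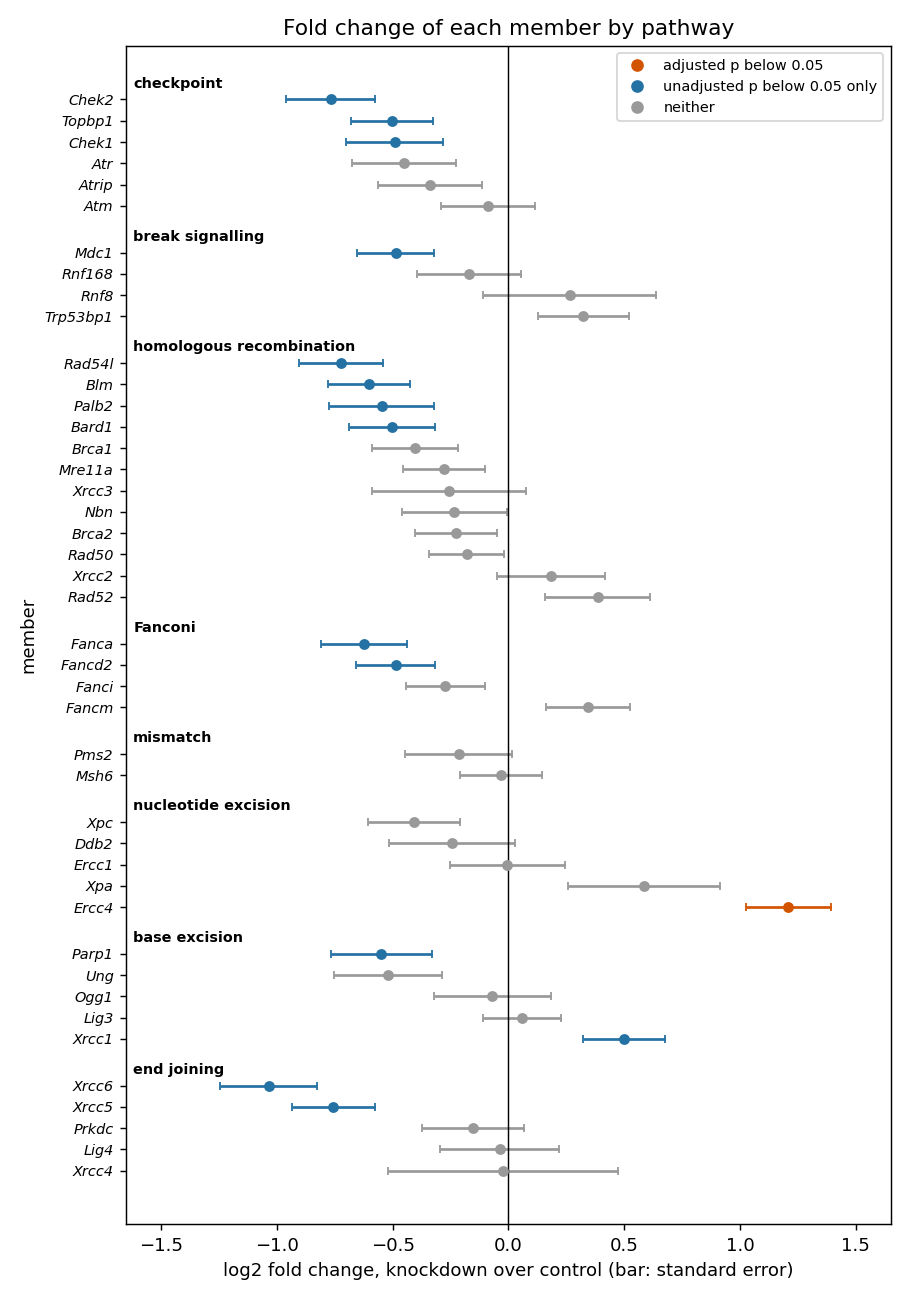
Log2 fold change, knockdown over control, of each member with its standard error as a bar, sorted within pathway, with colour for the result of the test. Ercc4 at 1.21 is the single member with an adjusted p below 0.05, and 13 members to the left of 0 and Xrcc1 to its right reach an unadjusted p below 0.05. Of all tested genes, 8.58% were lower and 11.0% higher at an unadjusted p below 0.05.

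The Fanconi members, from a pathway that unhooks crosslinked strands, lay on the low side except for the anchor of the complex. Fanca, a subunit of the core ubiquitin ligase, had 40.1 and 40.9 CPM in the knockdown libraries, against 65.5 and 59.2 CPM in the controls. The knockdown libraries were nearly equal, and the log2 fold change was -0.62 ± 0.19 (SE, edgeR adjusted p = 0.123). Fancd2, which the core complex ubiquitinates, had 101 and 92.7 CPM in the knockdown libraries and 141 and 129 CPM in the controls, or -0.49 ± 0.17 (SE, edgeR adjusted p = 0.172). Fanci, its clamp partner, had 67.7 and 66.8 CPM in the knockdown libraries and 81.3 and 81.1 CPM in the controls, a smaller difference of -0.27 in which replicates agreed to within about 1 CPM. Exons of Fanci overlap those of Polg on the opposite strand. Fancm, the translocase that anchors the core complex to DNA, lay on the other side, at 139 and 122 CPM in the knockdown libraries, against 94.4 and 112 CPM in the controls, or 0.34 ± 0.18 (SE, edgeR adjusted p = 0.342). The median of the 4 was -0.38. In 3 of them both knockdown libraries lay below both controls and in 1 above, against 24.6% and 27.3% of all tested genes. The 10 Fanconi genes of the further list described below had a median of -0.17. In 2 of those 10 both knockdown libraries lay below both controls, in 2 above, and in 6 the groups overlapped.

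Both mismatch repair members overlapped between the groups. Msh6, part of the sensor of base mispairs, was the most abundant member by CPM, at 1000 and 972 CPM in the knockdown libraries and 997 and 1017 CPM in the controls. Its log2 fold change of -0.03 had a standard error of 0.18 (edgeR adjusted p = 0.946) and was 0.02 when libraries were scaled by size alone. Pms2, which nicks the mispaired strand, had 44.4 and 32.6 CPM in the knockdown libraries and 39.9 and 49.4 CPM in the controls, or -0.21 ± 0.23 (SE, edgeR adjusted p = 0.657), and was at -0.01 without knockdown replicate 2 and -0.46 without knockdown replicate 1. In the 3 mismatch genes of the further list described below, Msh3, Pms1 and Mlh3, both knockdown libraries lay below both controls. Of all tested genes, 24.6% did so. The median log2 fold change of these 3 genes was -0.63, and 0 were called by edgeR.

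Nucleotide excision repair removes bulky and ultraviolet lesions, and its members divided into the called nuclease gene and a set with no common direction. Ercc4 lies on chromosome 16 from 13109366 to 13152009 (mm10), and its exons overlap those of no other annotated gene. It held 1977 and 1973 counts in the knockdown libraries, against 873 and 975 counts in the controls. After scaling these were 103 and 120 CPM in the knockdown libraries and 46.1 and 50.6 CPM in the controls, so the lower knockdown library stood above the sum of both controls. The means were 112 ± 11.7 CPM in the knockdown libraries and 48.4 ± 3.15 CPM in the controls (SD, n = 2 each). The log2 fold change was 1.21 ± 0.18 (SE, edgeR adjusted p = 0.0288), which ranked 95 by p among the 16209 tested genes. Over 12 alternatives its log2 fold change stayed between 1.10 and 1.31. It was called in 11 of them, with an adjusted p from 1.63e-05 to 0.1, and was not called without knockdown replicate 2, where the value was 1.10 (edgeR adjusted p = 0.1).

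The partner of ERCC4 in this nuclease showed no such difference. Ercc1, the non-catalytic subunit that holds the nuclease on DNA, had 19.9 and 22.6 CPM in the knockdown libraries and 23.9 and 18.7 CPM in the controls. The groups overlapped and the log2 fold change was -0.00 ± 0.25 (SE, edgeR adjusted p = 0.995), and whether Ercc4 and Ercc1 differ from each other in response was not tested. Per length, Ercc4 was at 15.4 and 17.8 CPM per kilobase of exon in the knockdown libraries and 6.85 and 7.52 in the controls, whereas Ercc1 was at 6.41 and 7.25 CPM per kilobase in the knockdown libraries and 7.68 and 6.02 in the controls. On this scale of level, the subunits were close in the controls, and Ercc4 was above Ercc1 in both knockdown libraries. The scale divides by the exons of all annotated transcripts of a gene, so a comparison between genes depends on that length. The promoters of the pair are shown side by side since Ercc4 was called and Ercc1 was not (RefSeq, GRCm38.p6, Ercc4 at chr16:13109486-13109785, plus strand, and Ercc1 at chr7:19344821-19345120, plus strand). Both windows lie inside the gene spans, which RefSeq begins at 13109366 for Ercc4 and 19344067 for Ercc1. Capitals mark matches to CCAAT on either strand in Ercc4, and no motif searched was found in the Ercc1 window.
Ercc4: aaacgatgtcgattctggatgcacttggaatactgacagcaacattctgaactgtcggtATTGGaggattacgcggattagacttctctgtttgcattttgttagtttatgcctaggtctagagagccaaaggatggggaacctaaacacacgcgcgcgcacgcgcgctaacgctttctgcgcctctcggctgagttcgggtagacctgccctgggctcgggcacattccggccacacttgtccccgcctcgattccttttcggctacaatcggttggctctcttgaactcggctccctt
Ercc1: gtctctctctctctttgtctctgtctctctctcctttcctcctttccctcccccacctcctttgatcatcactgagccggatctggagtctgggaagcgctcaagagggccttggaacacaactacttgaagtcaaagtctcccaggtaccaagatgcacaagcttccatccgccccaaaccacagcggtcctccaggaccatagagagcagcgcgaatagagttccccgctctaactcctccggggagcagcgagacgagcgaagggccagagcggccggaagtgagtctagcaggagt

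Xpa, the scaffold that positions this nuclease at the lesion, had 8.74 and 8.70 CPM in the knockdown libraries and 5.39 and 6.23 CPM in the controls. Its groups were apart at a low level, with a log2 fold change of 0.59 and a standard error of 0.33. The damage sensors had log2 fold changes below 0. Xpc, which finds helix distortions, had 36.3 and 34.5 CPM in the knockdown libraries and 43.3 and 50.6 CPM in the controls, or -0.41 ± 0.20 (SE). Ddb2, the ultraviolet damage receptor, had 14.7 and 13.1 CPM in the knockdown libraries and 14.4 and 18.5 CPM in the controls, with overlap, and its exons overlap those of Acp2 on the opposite strand over 23.8% of their length. The median of the 5 members was -0.00, and it was 0.18 without control replicate 1 and -0.10 without control replicate 2.

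Among the 5 base excision and strand break members 0 were called by edgeR, where 0.876% of all tested genes were called higher and 0.555% lower. At an unadjusted p below 0.05, 1 was higher (background 11.0%) and 1 lower (background 8.58%). Parp1, the sensor that marks nicks with poly(ADP-ribose), had 648 and 618 CPM in the knockdown libraries and 1091 and 762 CPM in the controls. The controls were further apart from each other than the nearer control was from the knockdown libraries. The log2 fold change was -0.55 ± 0.22 (SE, edgeR adjusted p = 0.218). It was -0.27 without control replicate 1 and -0.84 without control replicate 2, where Parp1 was called lower (edgeR adjusted p = 0.0456, in a range of 0.0456 to 0.703 over 12 alternatives). Ung, which removes uracil, had the same shape, with 83.0 and 65.7 CPM in the knockdown libraries and 127 and 86.5 CPM in the controls, or -0.52, which was -0.22 without control replicate 1. Xrcc1, the scaffold that PARP1 recruits, lay on the other side at 142 and 155 CPM in the knockdown libraries and 114 and 96.4 CPM in the controls, or 0.50 ± 0.18 (SE, edgeR adjusted p = 0.177). Lig3, the ligase that XRCC1 carries, had 127 and 131 CPM in the knockdown libraries and 130 and 118 CPM in the controls and overlapped. Ogg1, which removes oxidised guanine, overlapped as well, at 16.4 and 16.5 CPM in the knockdown libraries and 18.6 and 16.0 CPM in the controls. The median of these 5 members was -0.07, and it was 0.04 without control replicate 1 and -0.22 without control replicate 2.

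End-joining members lay low at the Ku step and overlapped beyond it. Xrcc6, the smaller Ku subunit, on chromosome 15 from 81987833 to 82040085 (mm10), had 61.4 and 43.7 CPM in the knockdown libraries and 107 and 108 CPM in the controls. The controls were nearly equal and both knockdown libraries were far below them, at means of 52.6 ± 12.5 CPM in the knockdown libraries and 108 ± 0.454 CPM in the controls (SD, n = 2 each). The log2 fold change of -1.04 ± 0.21 (SE) just missed the threshold (edgeR adjusted p = 0.0566). The alternatives that called it lower included DESeq2, no filter on low counts and leaving out knockdown replicate 1, at -1.31, while it was at -0.81 and not called without knockdown replicate 2, with an adjusted p from 0.000242 to 0.317 over 12 alternatives. Its exons overlap those of Desi1 on the opposite strand over 7.7% of their length, and Desi1 itself was at 57.4 and 55.6 CPM in the knockdown libraries and 57.8 and 55.4 CPM in the controls.

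Xrcc5, the larger Ku subunit, on chromosome 1 from 72307417 to 72394953 (mm10), had 73.9 and 66.0 CPM in the knockdown libraries and 109 and 127 CPM in the controls. Both knockdown libraries were well below both controls, at a log2 fold change of -0.76 ± 0.18 (SE, edgeR adjusted p = 0.0793). It was called lower with DESeq2, with no filter on low counts and when control replicate 1 was left out, with an adjusted p from 0.0122 to 0.469 over 12 alternatives. The promoters of the Ku genes are shown because these partners lay low together (RefSeq, GRCm38.p6, Xrcc6 at chr15:82016119-82016418, plus strand, and Xrcc5 at chr1:72307171-72307470, plus strand). The Xrcc6 window lies well inside the gene span, which RefSeq begins at 81987833, so its start is not the first base of that span. Capitals mark matches to CCAAT in both and to the E2F motif TTTCCCGC in Xrcc6, on either strand.
Xrcc6: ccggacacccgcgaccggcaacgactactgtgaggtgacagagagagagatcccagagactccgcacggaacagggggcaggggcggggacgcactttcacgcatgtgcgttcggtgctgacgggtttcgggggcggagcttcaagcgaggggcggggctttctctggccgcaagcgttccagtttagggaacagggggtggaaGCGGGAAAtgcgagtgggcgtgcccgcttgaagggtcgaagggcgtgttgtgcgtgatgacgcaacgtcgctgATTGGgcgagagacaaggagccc
Xrcc5: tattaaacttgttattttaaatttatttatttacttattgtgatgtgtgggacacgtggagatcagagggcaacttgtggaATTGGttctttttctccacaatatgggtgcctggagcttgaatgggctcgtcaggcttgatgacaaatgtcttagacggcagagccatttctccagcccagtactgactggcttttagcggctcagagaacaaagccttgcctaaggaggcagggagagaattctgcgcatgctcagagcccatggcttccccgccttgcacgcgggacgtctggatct

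The 3 later factors among the members overlapped between groups. Prkdc, the catalytic subunit of the DNA-dependent kinase that Ku recruits, had 93.5 and 70.2 CPM in the knockdown libraries and 78.0 and 104 CPM in the controls. Lig4, the ligase of this pathway, had 17.7 and 18.8 CPM in the knockdown libraries and 16.4 and 21.1 CPM in the controls. Xrcc4, the cofactor of LIG4, was at 5.02 and 4.20 CPM in the knockdown libraries and 2.64 and 6.74 CPM in the controls, so its controls differed from each other more than its groups did. Log2 fold changes were -0.15 for Prkdc, -0.04 for Lig4 and -0.02 for Xrcc4. Of the 5 end-joining genes tested from the further list, Nhej1 lay above both controls and Dclre1c below them in both knockdown libraries. The median of the 5 end-joining members was -0.15, and it was -0.55 without control replicate 1 and 0.02 without control replicate 2.

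**Figure D3:**
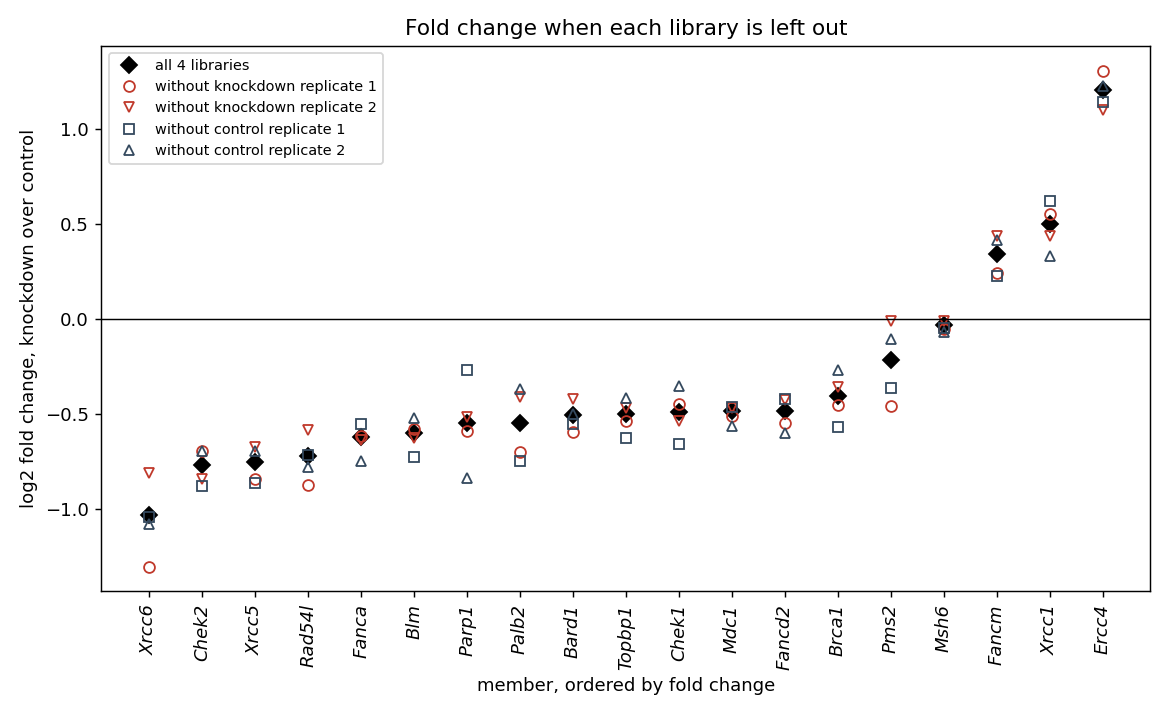
Log2 fold change, knockdown over control, of the 19 members described in full, with all 4 libraries as black diamonds and with each library left out as open symbols. Ercc4 stays between 1.10 and 1.31 and Xrcc6 between -1.31 and -0.81, while Parp1 runs from -0.84 to -0.27 with the control left out.

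Over all 43 members, leaving out 1 library moved the log2 fold change by over 1.5 times or changed its sign in 22, and changed its sign in 9. Levels were compared between members per length. That length joins the exons of all annotated transcripts of a gene, and the order of members depends on it. In all libraries Msh6 and Parp1 stood above the rest, at 224 to 234 and 117 to 206 CPM per kilobase of exon. Mdc1 followed at 34.9 to 35.8 CPM per kilobase in the knockdown libraries and 48.7 to 50.3 in the controls, close to Xrcc5 at 25.8 to 28.9 in the knockdown libraries and 42.7 to 49.7 in the controls. At the low end were Xrcc4, with 0.627 to 1.60 CPM per kilobase over the 4 libraries, and Rnf8, with 0.328 to 0.456. Their mean CPM were close, at 4.65 for Xrcc4 and 4.67 for Rnf8, while their exon lengths were 4.21 and 11.7 kilobases. Exons of Rnf8 overlap those of Gm28043 on the same strand over 13.2% of their length, so reads of these genes may be mixed. The members between the high and low ends followed each other closely. In 38 of the 42 steps of this order the ranges of neighbouring members over the 4 libraries overlapped.

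**Figure D4:**
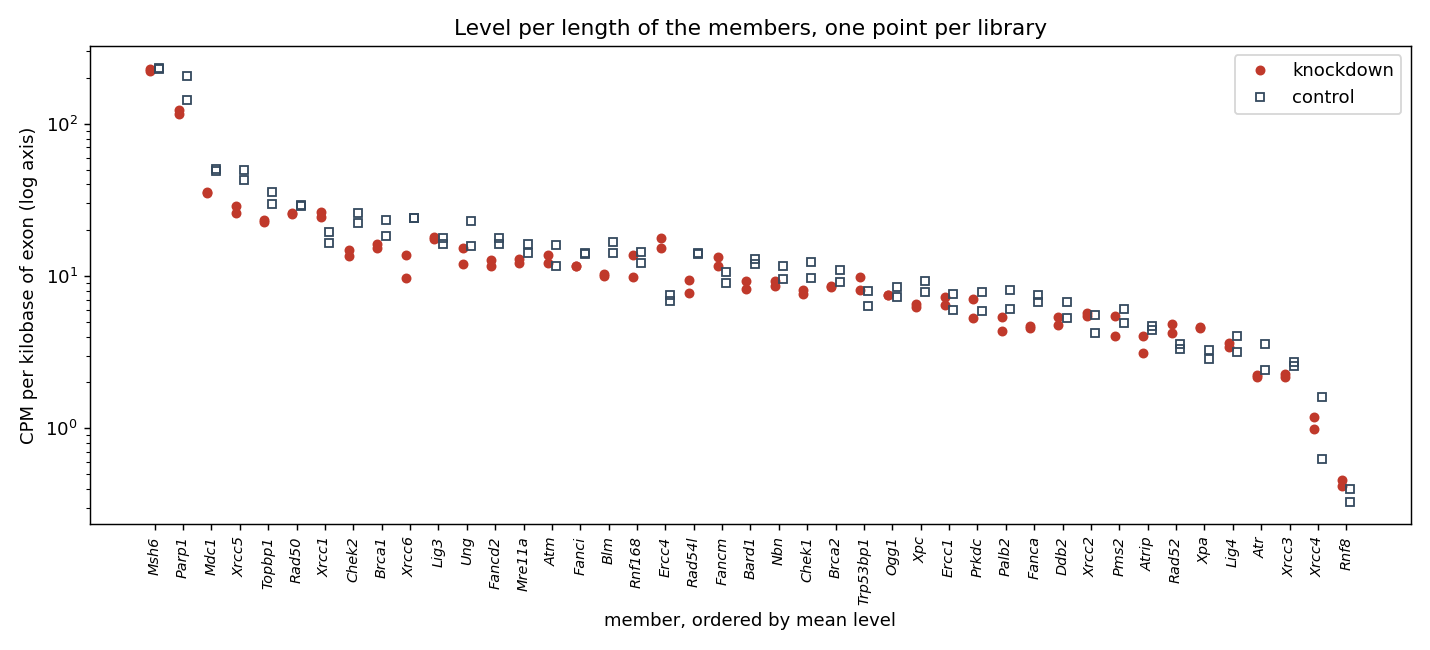
Level of each member as scaled CPM per kilobase of exon on a log axis, with knockdown libraries as filled circles left of the controls as open squares, in order of mean level. Msh6 and Parp1 lie above 100 CPM per kilobase in every library, and Rnf8 lies below 1 in every library.

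Repair genes outside the members were read from a further list. This list held 95 genes of the same pathways, of which 94 were found and tested. In edgeR's test 0 were called in either direction, with 2 higher (2.13%, against 11.0% of all tested genes) and 11 lower (11.7%, against 8.58%) at an unadjusted p below 0.05. With limma-voom 0 were called. With DESeq2 0 of the 94 were called higher and 5 lower, where 3.67% and 2.88% of all tested genes were. The median log2 fold change was -0.12. In 36 of the 94 (38.3%) both knockdown libraries lay below both controls, against the 24.6% of all tested genes. In 10 (10.6%) both lay above, against 27.3% of all tested genes. That the members and this list differ was not tested.

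The further genes with the smallest p belonged to several pathways. Tipin, a fork protection factor, had 41.0 and 37.9 CPM in the knockdown libraries and 65.8 and 93.2 CPM in the controls, or -1.01 ± 0.22 (SE, edgeR adjusted p = 0.0668). Dna2, a nuclease that resects broken ends, had 61.0 and 54.1 CPM in the knockdown libraries and 86.9 and 104 CPM in the controls, or -0.73 (edgeR adjusted p = 0.0922). Usp28, a deubiquitinase that binds the TRP53BP1 protein, had 141 and 74.4 CPM in the knockdown libraries and 281 and 206 CPM in the controls, or -1.18 (edgeR adjusted p = 0.0928). In all 3, as in Mlh3 and Rad51c below, both knockdown libraries lay below both controls, where 24.6% of all tested genes did so. These genes were picked by their p, so this separation is no further support. Mlh3, a mismatch repair homolog that also acts in meiosis, had 31.2 and 26.4 CPM in the knockdown libraries and 45.9 and 54.1 CPM in the controls, or -0.80 (edgeR adjusted p = 0.0981). Rad51c, a recombinase paralog, had 14.7 and 12.1 CPM in the knockdown libraries and 24.0 and 27.0 CPM in the controls, or -0.93 (edgeR adjusted p = 0.102). The 2 further genes that were higher at an unadjusted p below 0.05 were Nhej1 and Slx4, both named here after their values were seen. Nhej1, a factor that bridges broken ends with XRCC4, had 8.21 and 10.3 CPM in the knockdown libraries and 5.28 and 5.19 CPM in the controls, or 0.82 ± 0.34 (SE, edgeR adjusted p = 0.229). Slx4, the scaffold that docks ERCC4 at crosslinks, had 109 and 85.4 CPM in the knockdown libraries and 70.0 and 71.4 CPM in the controls, or 0.46 ± 0.19 (SE, edgeR adjusted p = 0.233).

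Many repair genes are transcribed with the replication programme, so a list of 25 S phase genes was read beside them (Fen1 is in this list and in the further repair genes). Its median log2 fold change was -0.37, and 23 of the 25 were below 0, against 49.5% of all tested genes. In 16 (64.0%) both knockdown libraries lay below both controls, against 24.6% of all tested genes. Ccne1, the cyclin that starts S phase, fell to 96.0 and 99.5 CPM in the knockdown libraries, against 231 and 185 CPM in the controls, or -1.09 on the log2 scale (edgeR adjusted p = 0.0388). It was the single gene of the list to be called, where 0.555% of all tested genes were called lower. That call was lost without either knockdown library. Pcna, the sliding clamp of replication and repair, had 251 and 211 CPM in the knockdown libraries and 398 and 422 CPM in the controls, or -0.83 (edgeR adjusted p = 0.0645). The S phase list thus lay on the same side as the repair genes, and its part in their values was not tested.

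**Figure D5:**
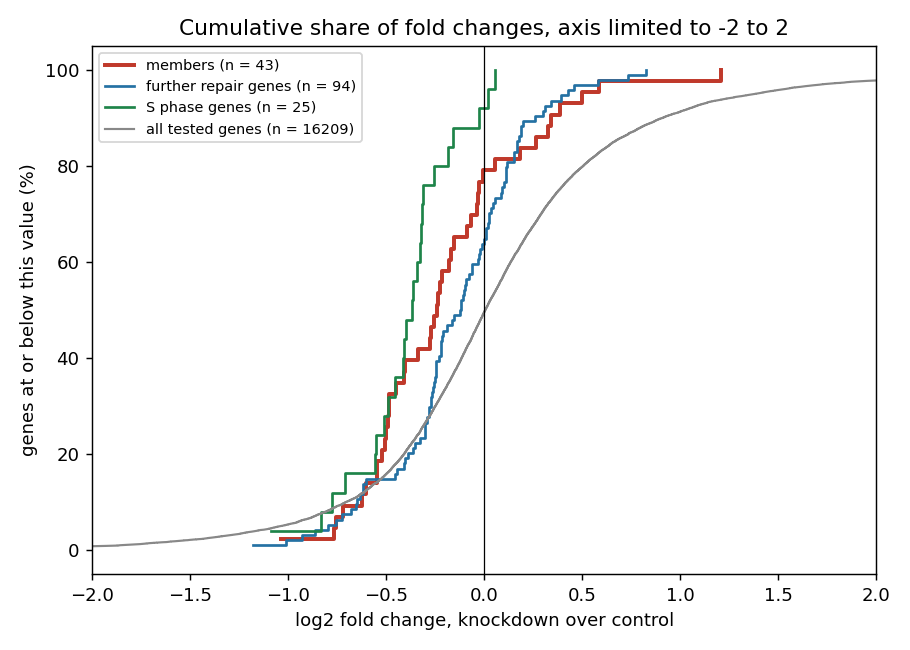
Cumulative share of genes, in percent, at or below each log2 fold change, knockdown over control, for the 43 members, 94 further repair genes, 25 S phase genes and all 16209 tested genes. At a fold change of 0 the curves stand at 79.1% of members, 64.9% of further repair genes, 92.0% of S phase genes and 49.5% of all tested genes.

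Promoter letters were read in the RefSeq windows from 250 bases before to 50 after the start, on both strands. Of the 43 members 36 had such windows (38 in all), and shares of members count genes, not windows. The E2F motif TTTCCCGC was present in 6 of the 36 (16.7%), which were Chek2, Mdc1, Brca2, Bard1, Msh6 and Xrcc6, and in 1.85% of the 15087 windows of tested genes. The log2 fold changes of these 6 genes were -1.04 in Xrcc6, -0.77 in Chek2 and -0.50 in Bard1. They were -0.49 in Mdc1, -0.23 in Brca2 and -0.03 in Msh6. All 6 were below 0, as were 34 of the 43 members (79.1%), and not all 6 were apart from the controls. Whether the motif goes with the direction was not tested. The other E2F form, TTTGGCGC, was in 0 of 36 and in 0.895% of the windows of tested genes. CCAAT, the box bound by NFY, was in 21 of 36 (58.3%), Ercc4 among them, and in 37.8% of the windows of tested genes. The element TTTGAA of cell cycle promoters was in 2 (12.3% of the windows of tested genes), the NRF1 motif in 1 (1.82%) and a p53 element matched by its half-site consensus in 1, Fanca (7.07%). None of the motifs spelled out here contains another, and a match describes letters, not a bound site.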

How the data were processed

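Messenger RNA of 2 knockdown and 2 control samples was sequenced. The deposited table gives raw counts without normalization, made with cutadapt, HISAT2 and featureCounts on mm10 per the submitters' processing notes. Tool versions, annotation, strandedness and the handling of multi-mapped reads are not given in these sources, so reads of overlapping genes and of pseudogene copies could be shared. Exons of 23 members overlapped another gene, in 16 cases a tested one (GENCODE M21). The 92 spike-in rows, all at 0, were left out, while 27 rows whose symbol had become a date stayed in the totals at 0.151% to 0.177% of counts.

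Genes were filtered with filterByExpr (16209 kept), scaled by TMM (1.03 and 1.01 in the knockdown libraries, 0.954 and 1.01 in the controls) and tested with the quasi-likelihood F-test of edgeR 4.0.16 in R 4.3.3, with group as the only term and Benjamini-Hochberg adjustment over all tested genes. Standard errors (SE) divide the absolute log2 fold change by the square root of F. CPM are TMM-scaled, and CPM per kilobase divide by the union of GENCODE exons. The biological coefficient of variation was 24.9%. Positions and promoter sequences are RefSeq's (GRCm38.p6, the build of mm10). Alternatives were 3 scalings, 2 filters, DESeq2 1.42.0, limma-voom (limma 3.58.1), the replicate number as a block and leaving out each library, in which the remaining library of a group borrows its spread from the other group.

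The members and lists were chosen with earlier results of these data known. Members described in full had an unadjusted p below 0.05 or were the most abundant or the most changed of their pathway. Of the further genes, those called or the 5 with the smallest p were named.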

Additional observations from a re-analysis of the deposited data

How the results depend on the processing

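The number of calls depended on the filter, the tool and single libraries. In the values reported 232 genes (1.43% of those tested) were called, among them 1 member, 0 further repair genes and 1 S phase gene. Without the filter on low counts 1717 genes (6.47%) were called, among them 5 members, 6 further repair genes and 4 S phase genes. With DESeq2 1062 genes (6.55%) were called, among them 5 members, 5 further genes and 4 S phase genes. Calls thus rose over all genes, and a gain particular to repair genes was not tested. In both settings the 5 members were Ercc4, higher, and Chek2, Rad54l, Xrcc5 and Xrcc6, lower. With the replicate block 656 genes (4.05% of those tested) were called. Among them were 2 further genes and 2 members, Ercc4 and Xrcc6, the latter at -1.05 with an edgeR adjusted p of 0.0181. The labels share replicate numbers but give them no meaning, and deviations of same-numbered libraries had a correlation of -0.05 across genes, so the block is no sign of pairing. Leaving out 1 library gave 153 to 587 called genes, 0 to 2 members, 0 to 2 further genes and 0 to 2 S phase genes. By name, 0 members were called without knockdown replicate 2, Ercc4 and Xrcc6 without knockdown replicate 1, Ercc4 and Xrcc5 without control replicate 1, and Ercc4 and Parp1 without control replicate 2. The member median ranged from -0.34 to -0.18 in these fits, the Fanconi median from -0.46 to -0.34, the end-joining median from -0.55 to 0.019 and the S phase median from -0.52 to -0.34. Msh6 changed sign to 0.018 without a scaling factor. Of the 43 members, 33 kept their sign in all 12 alternatives. Rnf8, Xrcc4, Xpa and Xrcc3, under 10 CPM in every library, are the members for which depth adds most to the error.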
